A study of Rattus norvegicus with 15 samples.

Results

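The 9 genes described here were grouped as genes of fibrous matrix and of the brain's coverings, although Ptgds followed oligodendrocyte markers, as given further on. All were measured in tissue of the ventral tegmental area, where dopamine neurons that project to the forebrain lie. They were Col1a1, Col1a2, Col3a1, Dcn, Lum, Igf2, Igfbp2, Ptgds and Fn1, 9 of 14217 named genes on the array, and all probe sets that the array annotation gives to 1 of these symbols were taken, 14 of the 31042 probe sets that are not controls. The series title names alcohol-preferring (P) rats and loss-of-control drinking, whereas the design text describes selective breeding for both high and low alcohol intake. Per the labels, the 2 groups were 7 rats with ethanol treatment and 8 age-matched rats with water, with 1 array per animal. No label read here states the age, litter, dissection day or array day of a rat, and batches were therefore not tested. The labels hold no ethanol rat with the number 3. The p-values for the groups set their difference against the spread between these animals. Th, the rate-limiting enzyme of dopamine synthesis, averaged 14.94 ± 0.22 log2 units in ethanol rats and 14.80 ± 0.26 in water rats (SD, n = 7 and n = 8).

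Fibroblasts of the meninges and of the sheaths around larger vessels make most of the fibrillar collagen of the brain. Type I collagen is built from the chains of Col1a1 and Col1a2, and type III collagen from Col3a1. Decorin (Dcn) and lumican (Lum) are small leucine-rich proteoglycans that bind collagen fibrils and set their spacing. The growth factor Igf2 is made in the adult rodent brain mainly by meninges, choroid plexus and vessels, and Igfbp2 binds it. Ptgds, the lipocalin-type prostaglandin D synthase, is made by meninges and also by oligodendrocytes, and fibronectin (Fn1) is a matrix glycoprotein that vascular cells make as well.

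Promoter windows from RefSeq (build GRCr8), running from 250 bases before to 50 after an annotated transcript start, were given for 5 of the 9 genes, with 6 windows in all. They are shown because Col1a2 varied with Lum and with Igf2 among the rats, while the pair of Lum with Igf2 and all pairs with Igfbp2 or Ptgds did not pass the same test, with values given further on. Each stretch is written 5′ to 3′ on the gene's own strand, and capitals mark matches on either strand to the CCAAT box (CCAAT or ATTGG), to the TATA box (TATAAA or TTTATA) or to the GC box (GGGCGG or CCGCCC).
Col1a2, chr4:33518307-33518416, plus strand: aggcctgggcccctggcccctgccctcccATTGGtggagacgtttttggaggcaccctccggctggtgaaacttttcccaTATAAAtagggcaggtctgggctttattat
Lum, chr7:34245564-34245593, plus strand: gaggctggcgtgATTGGgctggtccccccc
Igf2, chr1:207250587-207250616, minus strand: gaaggagggaggGGGCGGgtgcaaaggggg
Igfbp2, chr9:81864691-81864810, plus strand: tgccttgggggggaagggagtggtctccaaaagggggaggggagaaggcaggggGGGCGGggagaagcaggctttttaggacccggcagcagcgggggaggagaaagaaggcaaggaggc
Ptgds, chr3:28682979-28683098, minus strand: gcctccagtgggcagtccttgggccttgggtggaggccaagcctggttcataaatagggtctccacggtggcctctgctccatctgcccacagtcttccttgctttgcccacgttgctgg
The Col1a2 window held 1 CCAAT box and 1 TATA box, and the Lum window 1 CCAAT box. Each Igf2 window and the Igfbp2 window held 1 GC box, and the Ptgds window held 2 overlapping matches to it, outside the stretch shown. Of all 33469 windows of this length, 37.5% hold a CCAAT box, 14.2% a TATA box and 33.1% a GC box, so these matches are common, and none of the 3 motifs searched was found in all 6 windows.

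The genes were selected on the ethanol and water values of these same arrays, so their differences between the groups are given as a description. A probe set was kept for the fit across the array if it averaged at least 6.94 log2 units, the 40th percentile of all probe sets. Of the 14 probe sets 8 passed, and they stood for 7 genes. Both probe sets of Col1a1 and the one of Col3a1 lay below that level, as did 3 of the 4 for Igf2. A gene is given by its probe set with the highest mean. Over the 9 genes the median difference, ethanol minus water, was -0.33 log2 units, against 0.0062 over all 18625 kept probe sets. Means were lower in ethanol rats for 8 of the 9, while 46.7% of the kept probe sets had lower means in ethanol rats. With limma's moderated test and Benjamini-Hochberg adjustment over the array, 0.929% of kept probe sets were called at an adjusted p below 0.05, and 0 of the 8 member probe sets were, although 3 had an unadjusted p below 0.05, all lower in ethanol rats. That unadjusted level was passed by 5.42% of kept probe sets with lower values in ethanol rats and by 6.67% with higher ones. Nothing is read from these counts, since the genes were selected on this contrast. Among the 3, the dimmer Col1a2 probe set reached the filter through its water values, with a mean of 6.56 log2 units in ethanol rats and 7.28 in water rats. Without the filter 0.448% of probe sets were called, 0.274% lower and 0.174% higher in ethanol rats, and among them were 2 of the 14 member probe sets, those of Col1a1 and Col3a1 with the higher means. RNA was taken from whole tissue, in which fewer cells of a type and less RNA per cell cannot be told apart.

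Col3a1 and Col1a2 had the largest differences of the 9. Col1a2 ranged over 6.92, 7.59 and 7.93 log2 units in ethanol rats (lowest, median, highest) and over 7.33, 8.39 and 8.62 in water rats. All 7 ethanol rats lay below the water mean, but water rats 6 and 8 fell within the ethanol range. The means were 7.53 ± 0.37 in ethanol rats and 8.21 ± 0.46 in water rats (SD), a difference of -0.68 log2 units (SE 0.19), or 0.622 of the water level. The other Col1a2 probe set differed by -0.72 log2 units (SE 0.20), and both tracked each other from rat to rat (r = 0.935 over 15 arrays after removal of the group means).

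Col3a1 ranged over 6.14, 6.59 and 6.85 log2 units in ethanol rats and over 6.65, 7.23 and 7.64 in water rats. Again all 7 ethanol rats lay below the water mean, and water rat 6 alone overlapped with them. Its difference was -0.73 log2 units, or 0.602 of the water level. Col1a1 ranged over 5.87, 6.07 and 6.50 in ethanol rats and over 6.33, 6.68 and 6.93 in water rats, with the overlap again due to water rat 6. Its difference was -0.52 log2 units, and that of its dimmer probe set -0.25. Col1a1 and Col3a1 are dim on these arrays, at the 33.4th and 39.5th percentile of all probe sets.

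The collagen-binding proteoglycans differed less. Dcn ranged over 8.60, 9.10 and 9.42 log2 units in ethanol rats and over 8.60, 9.47 and 9.68 in water rats, so both groups had the same lowest value to 2 decimals. The difference was -0.30 log2 units (SE 0.16). Lum ranged over 7.0, 7.94 and 9.66 in ethanol rats and over 7.52, 8.43 and 8.99 in water rats. Ethanol rat 5 had the highest Lum value of all 15 rats and ethanol rat 6 the lowest, so the ethanol range enclosed the water range. The difference was -0.33 log2 units (SE 0.30), and it was -0.60 without ethanol rat 5 and -0.16 without ethanol rat 6. Dcn and Lum are neighbours in the genome, with no protein-coding gene between them in the RefSeq table.

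Igf2 stood near the collagens. Its bright probe set ranged over 8.52, 9.25 and 9.52 log2 units in ethanol rats and over 9.12, 9.86 and 10.21 in water rats. All 7 ethanol rats were below the water mean, and water rats 6 and 8 were within the ethanol range. The means were 9.15 ± 0.35 in ethanol rats and 9.73 ± 0.36 in water rats (SD), a difference of -0.58 log2 units (SE 0.17), or 0.668 of the water level. The other 3 Igf2 probe sets, all below the filter, differed by 0.0040, -0.052 and -0.087, and their correlations with the bright one lay between -0.38 and -0.096, so they did not follow it. Of all kept probe sets 0.156% were lower by 0.5 log2 units or more, among them this one and both of Col1a2, a count that the choice of genes and, for the dimmer Col1a2 probe set, the filter helped to set.

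Igfbp2, which binds Igf2, was ordered differently among the rats. It ranged over 8.80, 9.18 and 9.92 log2 units in ethanol rats and over 8.72, 9.68 and 10.46 in water rats. The water rats were spread widely: rats 1, 3 and 5 lay between 8.72 and 8.93, near the lowest ethanol rats, and the other 5 lay between 9.59 and 10.46. The difference was -0.32 log2 units (SE 0.28), and it lay between -0.45 and -0.20 with 1 array left out. Ptgds ranged over 14.31, 14.39 and 14.54 in ethanol rats and over 14.18, 14.30 and 14.60 in water rats, and its mean was 0.082 log2 units (SE 0.056) higher in ethanol rats. Fn1 ranged over 9.53, 9.67 and 9.86 in ethanol rats and over 9.40, 9.74 and 10.20 in water rats, with a difference of -0.12 (SE 0.11). The water rats with the highest Fn1, numbers 2 and 6, were not those with the highest collagen values, and water rat 6 had the lowest Col1a2 of its group.

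**Figure D1:**
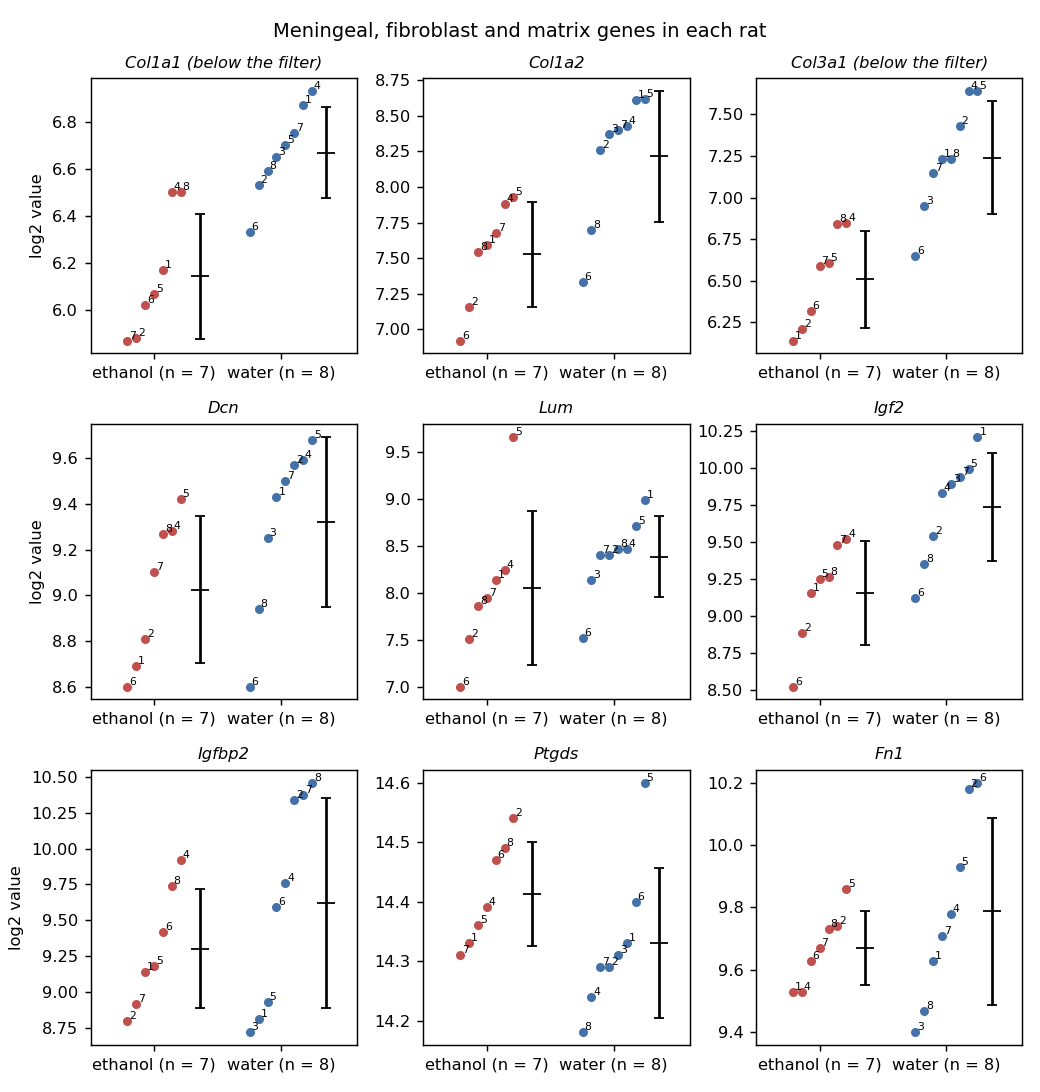
Log2 value of each gene's brightest probe set in every rat (points, numbered as in the labels), with the mean and SD of each group in black beside the points; each panel has its own axis. Water rat 6 is the lowest of its group for Col1a1, Col1a2, Col3a1, Dcn, Lum and Igf2, and ethanol rat 6 is the lowest of its group for Col1a2, Dcn, Lum and Igf2.

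Variation among rats of 1 group was large. The pooled SD within groups was 0.42 log2 units for Col1a2, 0.642 for Lum and 0.607 for Igfbp2, against a median of 0.111 over the kept probe sets. Of the 9 genes 8 lay above the 90th percentile of that SD, and Ptgds lay at the 49th (49.0). Col1a1 and Col3a1, counted among the 8, were themselves below the filter. The genes were selected on values of these same arrays, and large group differences arise more easily where this spread is large. That count is therefore a description. With the group means removed, whether the genes vary together among rats with the same drink was tested.

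After the group means were removed, Col1a2 varied with Igf2, Dcn and Lum, and Col3a1 with Dcn. All 15 pairs among the 3 collagens, Dcn, Lum and Igf2 had a positive Pearson r, with a median of 0.626 and a range of 0.322 to 0.926, and the grouping of these 6 was made after the values were seen. Each of the 36 pairs among the 9 genes was tested by permuting rats within their groups, two-sided, with 100000 resamples and Benjamini-Hochberg adjustment over the 36. A total of 6 pairs passed, each of them among those 6 genes, of whose 15 pairs the other 9 did not pass. The share of passing pairs among other probe sets was not computed, so this count is not read as particular to these genes. Col1a1 was in none of the passing pairs, and no pair of 2 collagens passed. The collagen pairs lay near the threshold, with r from 0.581 to 0.638 and adjusted permutation p from 0.0789 to 0.0808. Col1a2 and Igf2 had the highest r, 0.926 (permutation p = 4e-05, adjusted p = 0.00144), with a rank correlation rho of 0.793 (permutation p = 0.0011, adjusted p = 0.0099). Without ethanol rat 6 and water rat 6, the rats farthest from the median of Col1a2, r was 0.860.

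Dcn followed Col1a2 (r = 0.883, permutation p = 3e-04, adjusted p = 0.00351; rho = 0.814, permutation p = 5.5e-04, adjusted p = 0.00672) and Col3a1 (r = 0.842, permutation p = 3.9e-04, adjusted p = 0.00351; rho = 0.854, permutation p = 3.9e-04, adjusted p = 0.00672). Lum followed Col1a2 (r = 0.745, permutation p = 2e-04, adjusted p = 0.00351; rho = 0.814, permutation p = 5.6e-04, adjusted p = 0.00672). Without the 2 rats farthest from the median, these 3 values of r were 0.756, 0.763 and 0.566, with permutation p of 0.00798, 0.00803 and 0.0394. The pairs of Dcn with Lum (r = 0.674, permutation p = 0.00224, adjusted p = 0.0134; rho = 0.668, permutation p = 0.0117, adjusted p = 0.0845) and with Igf2 (r = 0.766, permutation p = 0.00182, adjusted p = 0.0131; rho = 0.582, permutation p = 0.0326, adjusted p = 0.132) did not pass by rank. They rested on ethanol rat 6 and water rat 6, without which r was 0.466 (permutation p = 0.135) and 0.554 (permutation p = 0.0589). Without water rat 6 alone, 3 of the 36 pairs passed. The adjacent genes Dcn and Lum were tied with r = 0.674, against 0.883 for Dcn and Col1a2, and that difference was not tested.

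Igfbp2, Ptgds and Fn1 had 0 pairs that passed, with r from -0.39 to 0.25 for Igfbp2, from -0.39 to 0.38 for Ptgds and from -0.38 to 0.38 for Fn1. Some of these values depended on few rats or on the group. Dcn and Fn1 had r = 0.062, and 0.605 without ethanol rat 6 and water rat 6, while Col1a1 and Fn1 stayed negative (-0.38, and -0.47 without 2 rats). Igfbp2 and Col1a1 had r = 0.917 within ethanol rats and -0.236 within water rats, a contrast seen afterwards and not tested.

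**Figure D2:**
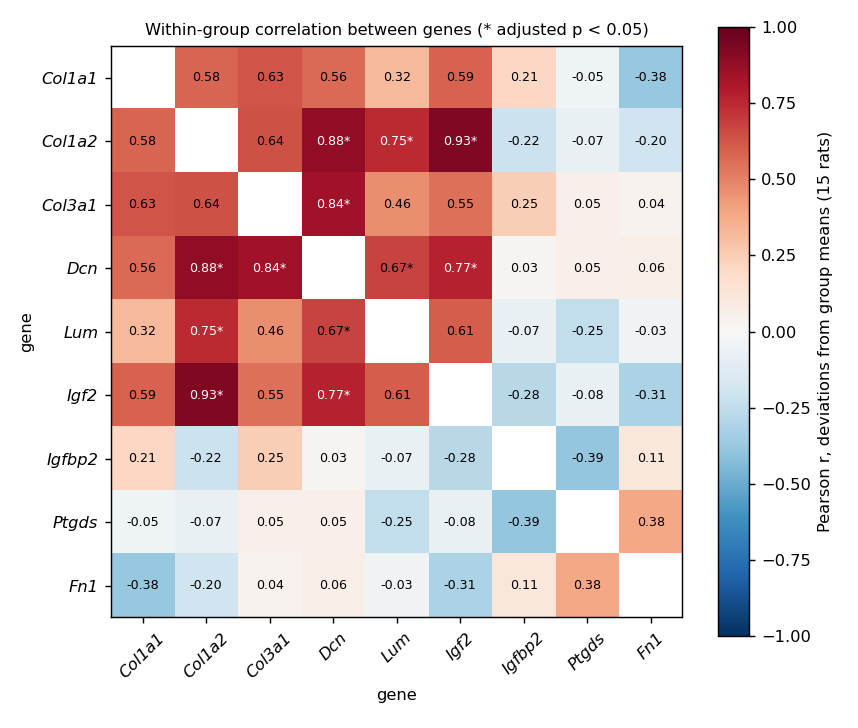
Pearson r between each pair of the 9 genes over 15 rats, after the mean of each group was subtracted; red is positive, blue negative, and asterisks mark the 6 pairs with an adjusted p below 0.05. The block of Col1a1, Col1a2, Col3a1, Dcn, Lum and Igf2 is positive throughout, from 0.322 to 0.926, and 0 pairs with Igfbp2, Ptgds or Fn1 carry an asterisk.

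Markers of cell types in a midbrain sample were set against Col1a2, Igf2, Igfbp2, Ptgds and Fn1 in the same way. A list was summarised by the mean log2 value of its kept genes, and 43 relations were tested, a family chosen after the values were seen. Ptgds followed the oligodendrocyte list (Mbp, Mog, Mag and others, 12 measured) closely, with r = 0.945 (permutation p = 1e-05, the smallest these resamples can give, adjusted p = 4.3e-04) and rho = 0.936 (permutation p = 1e-05, adjusted p = 4.3e-04). The r was 0.876 within ethanol rats and 0.978 within water rats, and 0.865 without the 2 rats farthest from the median of Ptgds. In the contrast of the groups the same list had a median of -0.17 log2 units, with 4 of 12 members called lower and 0 higher (0.542% and 0.387% of all kept probe sets), while Ptgds was at 0.082. Ptgds also followed Enpp2, the one gene measured in the choroid plexus and ependyma list and one that oligodendrocytes make as well (r = 0.830, permutation p = 6.6e-04, adjusted p = 0.00946; rho = 0.793, permutation p = 0.00105, adjusted p = 0.0151; r = 0.646 without 2 rats). Its relation to the microglial list passed by r (0.730, permutation p = 0.00292, adjusted p = 0.0251) and not by rank (rho = 0.657, permutation p = 0.0106, adjusted p = 0.0913), with r = 0.613 without 2 rats.

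Col1a2 followed the astrocyte list (Gfap, Aqp4, Slc1a2 and others, 10 measured), with r = 0.808 (permutation p = 3.6e-04, adjusted p = 0.00774) and rho = 0.825 (permutation p = 3.9e-04, adjusted p = 0.00839). It was 0.836 within ethanol rats, 0.804 within water rats and 0.797 without ethanol rat 6 and water rat 6. Igf2 did so by r (0.769, permutation p = 0.00158, adjusted p = 0.0170) but not by rank (rho = 0.682, permutation p = 0.0101, adjusted p = 0.0913), and its r was 0.667 without 2 rats. Between the groups, the mean of the astrocyte list ranged from 12.21 to 12.46 log2 units in ethanol rats and from 12.27 to 12.50 in water rats, its median difference was -0.063, and 0 of 10 members were called. Its part in the collagen and Igf2 differences was not tested. With the mural list the r of Col1a2 was 0.566 (permutation p = 0.0362, adjusted p = 0.222; rho = 0.568, permutation p = 0.0331, adjusted p = 0.178; r = 0.687 without 2 rats), which did not pass. Mural genes ranged in list mean from 8.48 to 8.80 in ethanol rats and from 8.56 to 8.96 in water rats, with 0 of 8 called. Fn1 and the endothelial list did not pass either (r = 0.590, permutation p = 0.0322, adjusted p = 0.222; rho = 0.604, permutation p = 0.0188, adjusted p = 0.132; r = 0.85 without 2 rats).

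**Figure D3:**
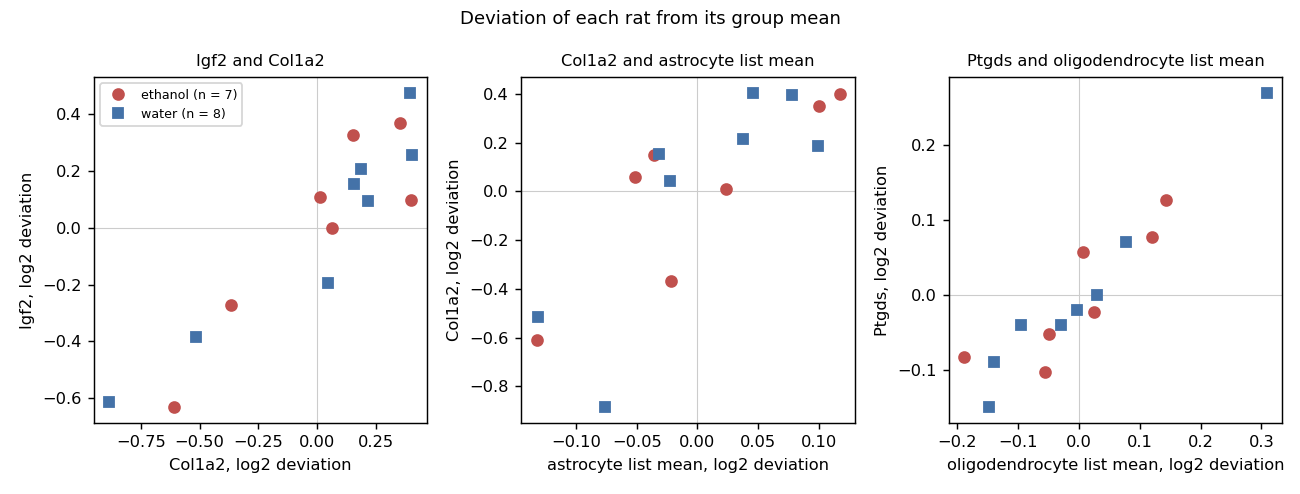
Each point is 1 rat, plotted as its log2 deviation from the mean of its own group (circles ethanol, squares water): Igf2 against Col1a2, Col1a2 against the mean of the astrocyte list, and Ptgds against the mean of the oligodendrocyte list. Pearson r is 0.926, 0.808 and 0.945, and in the left panel the lowest points include ethanol rat 6 and water rats 6 and 8.

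The genes most like Col1a2 among rats, by Pearson r over the 15 arrays without the group means and out of 13745 kept probe sets with 1 symbol, were the metalloprotease inhibitor Timp3 (0.859), the small proteoglycan Ogn (0.855), the cystine transporter Slc7a11 (0.853), Dbi (0.851), the smooth muscle actin Acta2 (0.851), Bhlhe22 (0.847), Cdc42ep4 (0.845), Tom1l1 (0.844), the astrocyte water channel Aqp4 (0.836) and the urea transporter Slc14a1 (0.831). Ogn belongs to the same family of small leucine-rich proteins as Dcn and Lum. Those most like Igf2 were the lipid phosphatase Plpp3 with 2 probe sets (0.927 and 0.849), Terf2 (0.891), Slc14a1 (0.885), Tmx3 (0.878), the adhesion molecule Vcam1 (0.873), Ercc6l2 (0.847), Wdr36 (0.841), the dystroglycan gene Dag1 (0.839) and Fjx1 (0.839). Between the groups these genes differed by -0.29 to 0.14 log2 units, and 0 of them were called. Their values of r were picked as the highest out of 13745 and were not tested.

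Collagen must be modified, folded and crosslinked before it forms fibrils. In the list of collagen processing and crosslinking genes, 14 were measured, of which 7 had lower means in ethanol rats, with a list median of -0.011. Of the 14, 2 were called lower and 0 higher. Among all kept probe sets 0.542% were called lower and 0.387% higher. Serpinh1 encodes HSP47, the collagen-specific chaperone of the endoplasmic reticulum. It ranged over 9.04, 9.22 and 9.36 log2 units in ethanol rats and over 9.46, 9.53 and 9.67 in water rats, and the groups did not overlap, as in 0.623% of kept probe sets. The means were 9.20 ± 0.13 in ethanol rats and 9.54 ± 0.08 in water rats (SD), a difference of -0.34 log2 units (SE 0.05; limma adjusted p = 0.00379), or 0.788 of the water level. Leaving out each of the 15 arrays in turn kept the call (highest adjusted p 0.0115). The name of its probe set ends in _s_at, which marks probes that may also match other transcripts.

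Plod1, a lysyl hydroxylase that prepares collagen for crosslinking, ranged over 9.41, 9.51 and 9.54 in ethanol rats and over 9.58, 9.64 and 9.81 in water rats, without overlap. Its difference was -0.17 log2 units (SE 0.04; limma adjusted p = 0.0491). It was no longer called in 13 of 15 such refits, the exceptions being those without water rat 4 or water rat 8, and the highest adjusted p was 0.107. Within groups the relation of Col1a2 to Serpinh1 did not pass (r = 0.248, permutation p = 0.365, adjusted p = 0.784; rho = 0.332, permutation p = 0.229, adjusted p = 0.604; r = 0.121 without 2 rats), nor did that to Plod1 (r = -0.088, permutation p = 0.787, adjusted p = 0.936; rho = 0.011, permutation p = 0.976, adjusted p = 0.976; r = 0.308 without 2 rats).

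In the list of other collagens 0 of 11 measured genes were called. Of these, 9 had lower means in ethanol rats, with a list median of -0.12 log2 units. Col6a1, a chain of microfibrillar collagen, was at -0.26 (SE 0.07; adjusted p = 0.0862), and the type V chain Col5a2 at -0.19 (SE 0.06; adjusted p = 0.187). Col5a2 is the genomic neighbour of Col3a1. The list of matrix glycoproteins and small proteoglycans had 21 measured members with a median of -0.083 and 0 called. Its smallest p-values were those of versican, Vcan (-0.27, adjusted p = 0.122), and biglycan, Bgn (-0.24, adjusted p = 0.244). In the list of matrix proteases and their inhibitors (11 measured, median 0.014), Timp2 was called higher and 0 were called lower. Timp2, an inhibitor of matrix metalloproteases, ranged over 12.14, 12.22 and 12.41 log2 units in ethanol rats and over 11.78, 11.97 and 12.18 in water rats, overlapping through water rat 1. Its difference was 0.28 log2 units (SE 0.06; limma adjusted p = 0.0370). It was no longer called in 11 of 15 such refits (highest adjusted p 0.0924), and the other kept Timp2 probe set was at 0.071 (adjusted p = 0.763).

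Receptors and growth factor partners of the 9 genes did not pass. Among collagen and fibronectin receptors (9 measured, median 0.0050) the integrin chain Itgb1 was at -0.19 (adjusted p = 0.0908) and Itgb5 at 0.14 (adjusted p = 0.399). In the insulin-like growth factor system (11 measured, median -0.034) the mRNA-binding protein Igf2bp2 was at -0.20 (adjusted p = 0.107) and the receptor Igf1r at 0.072 (adjusted p = 0.411). In the prostaglandin D pathway (7 measured, median -0.017) the cyclooxygenase Ptgs1 was at 0.12 (adjusted p = 0.392) and the prostaglandin dehydrogenase Hpgd at 0.20 (adjusted p = 0.526). In transforming growth factor beta signalling (12 measured, median 0.025), the pathway that drives collagen synthesis in fibroblasts, the receptor Tgfbr1 was at 0.22 (adjusted p = 0.194) and Smad4 at -0.066 (adjusted p = 0.408). Called genes numbered 0 in each of these 4 lists.

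**Figure D4:**
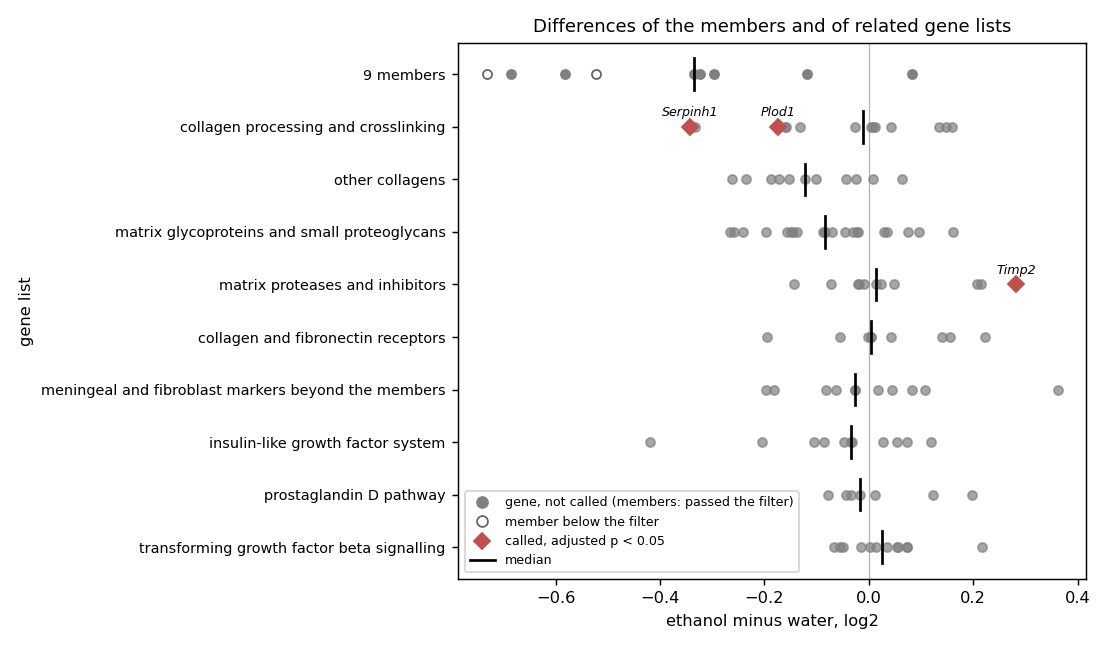
Log2 difference, ethanol minus water, of the 9 genes (top) and of each measured gene in 9 related lists; vertical strokes are medians, open circles are the members below the filter, and diamonds are called genes. The members have a median of -0.33, and the called genes of the lists are Serpinh1, Plod1 and Timp2.

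Other listed markers of meninges and fibroblasts were not called where measured. Of 25 listed beyond the 9 genes, 11 were measured, 0 were called, and the list median was -0.026 log2 units. The brightest of the 11 were Apod (means of 14.99 in ethanol and 15.01 in water rats) and Pdgfra (11.81 and 11.84). Which cells made the listed transcripts in this tissue was not tested, so the list mean is not a measure of meninges alone. The carboxylate transporter Slc13a3 was at -0.18 (adjusted p = 0.198) and Bmp5 at 0.36 (adjusted p = 0.468). Within groups the list mean and Col1a2 had r = 0.514 (permutation p = 0.0768, adjusted p = 0.367; rho = 0.614, permutation p = 0.0215, adjusted p = 0.132), with r = 0.730 without 2 rats. The list mean ranged from 9.16 to 9.28 in ethanol rats and from 9.04 to 9.35 in water rats. Foxc1, Foxd1, Tbx18, Aldh1a2 and Slc6a13, which mark meningeal fibroblasts or barrier cells, had no probe set above the filter. Of the choroid plexus and ependyma markers, Kcnj13, Aqp1, Foxj1, Ttr, Kcne2, Folr1 and Kl were below the filter. Ttr, the transthyretin of choroid plexus, averaged 6.01 ± 0.14 log2 units in ethanol rats and 6.34 ± 0.66 in water rats (SD, n = 7 and n = 8), where water rat 4 reached 7.93 and the others stayed at or below 6.38. Without water rat 4 the difference was -0.65 log2 units for Col1a2 and -0.57 for Igf2. Whether choroid plexus in the samples had a part in these differences was not tested. Of the other cell types, 0 of 12 endothelial markers and 0 of 8 dopamine neuron markers were called, and 3 of 12 microglial markers were called higher, as were 0.387% of all kept probe sets. Of 4 blood markers 1, a haemoglobin gene, was measured and not called.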

How the data were processed

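RNA of the ventral tegmental area was extracted, amplified in 2 cycles from 25 ng and hybridised to Affymetrix rat arrays, per the labels' protocols. The deposited values are log2 values per probe set that the authors made with RMA, per the submitters' processing notes, whose version those notes do not state. RMA corrects background, equalises the arrays and combines probes, so shifts common to most transcripts are removed. The table held 31099 probe sets on 15 arrays, 57 of them controls, with 0 missing values. Detection calls were not used here, and the number of arrays limits the precision (median SE 0.056 log2 units).

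Gene names came from GEO's platform annotation and were looked up by Entrez number in a RefSeq table (GRCr8). Of 31042 probe sets, 20826 had 1 symbol, 436 several and 9780 none, and 0 symbols changed. The array table states no build, and coordinates are printed for RefSeq promoter windows alone. The linear model of the 18625 kept probe sets (limma 3.58.1 under R 4.3.3, moderated by eBayes, two-sided) had no covariate, and the fit was tested on simulated data. The alternatives were no filter, a filter at the 20th percentile, a trended robust prior, array weights, median centring, the label number as a block, and each array left out.

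The labels number the rats in both groups. Over 7 equal-numbered pairs, the correlation of deviations from the group means ran from -0.41 to 0.29 and exceeded 0.1 in 4, so the numbers were not taken as pairs. A correlation over the whole array cannot show whether equal-numbered rats shared a batch. Both rats numbered 6 were the lowest of their groups for Col1a2, Dcn, Lum and Igf2, and whether they shared a batch was not tested. Members and lists were chosen with earlier results of these data known. By the rule for names, every member, the called genes of each related list (or the 2 with the smallest p) and the 10 genes most like Col1a2 and Igf2 were named; dim meningeal markers and the genes that exemplify a cell type list were added after their values were seen. Cell type lists are given by counts. Mean 3' minus 5' differences of control transcripts were 1.08 ± 0.05 in ethanol rats and 1.11 ± 0.05 in water rats (SD, n = 7 and n = 8; exact permutation p = 0.250, two-sided). Of 5 quality measures compared, the smallest p belonged to the median r between an array and all others, which averaged 0.996 for ethanol and 0.995 for water arrays (p = 0.0260 by the same exact permutation test, 0.130 after adjustment over the 5).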

Additional observations from a re-analysis of the deposited data

Results flagged for a closer look

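A rat that stood far from the others of its group was looked for in 52 sets of values by Dixon's test, which chance passes for about 1 group in 20, and 3 were found. Water rat 4 had a Ttr value of 7.93 log2 units, and the next highest water rat had 6.38. Ethanol rat 5 had a Kcnj13 value of 6.96, and the next highest ethanol rat had 6.70. Water rat 5 had a value of 4.99 in the dimmest Igf2 probe set, and the next lowest water rat had 5.29. All 3 probe sets were below the filter on dim signals.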

How the results depend on the processing

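The differences of the 8 kept member probe sets kept their direction under every alternative run. The median over the 9 genes was -0.33 log2 units and lay between -0.51 (without ethanol rat 5) and -0.26 with 1 array left out. Of all kept probe sets 173 were called, and 100 to 180 with 1 array left out (100 without ethanol rat 7, 102 without ethanol rat 8). Called member probe sets numbered 0, and 0 to 1 with 1 array left out (Col1a2 without water rat 6, adjusted p = 0.0332). They numbered 2 without the filter and 2 with a filter at the 20th percentile, which test the dim Col1a1 and Col3a1. With the replicate block, whose numbers were not taken as pairs in the main fit, 59 probe sets and 1 member probe set (Col1a2, limma adjusted p = 0.0443) were called. Serpinh1, Plod1 and Timp2 were then no longer called (limma adjusted p 0.0821, 0.155 and 0.155). With the block and no filter, an alternative chosen after seeing the data, 36 probe sets and 1 member probe set were called. That member was Col3a1 (limma adjusted p = 0.0369), while the brighter probe sets of Col1a2 and Col1a1 were at 0.0534 and 0.0583. Without the filter Plod1 and Timp2 had adjusted p of 0.0913 and 0.0563, since more probe sets were tested. The median r of the 36 pairs was 0.16, with 0.099 to 0.27 when 1 array was left out and 0.34 without the 2 farthest arrays. It was 0.058 with another probe set for Col1a1, Col1a2 and Igf2, the only genes with more than 1. Pairs that passed numbered 6, and 3 to 9 with 1 array left out (3 without water rat 6); the cause of these shifts was not tested. Signal over background is unknown, which limits what can be said of Col1a1, Col3a1 and the dim Igf2 probe sets.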
